A study of Mus musculus with 8 samples.

Results

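Polycomb proteins and other regulators of chromatin were followed in the mouse uterus, where the deleted gene, Ezh2, encodes the catalytic subunit of Polycomb repressive complex 2 (PRC2). The members were chosen by gene symbol alone: PRC2 and PRC1 subunits, heterochromatin protein 1 genes, lysine methyltransferases and demethylases, histone deacetylases, SWI/SNF, ISWI and CHD remodellers, bromodomain genes, and DNA methylation genes. Of the 5828 genes in the 4 comparison tables, 75 matched. The transcript of Ezh2 was not analysed here and gave no check of the deletion.

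The study placed sections of uterus on Visium slides, whose barcoded spots capture messenger RNA in place, so that 1 spot covers a patch of tissue with, as a rule, more than 1 cell. The 4 WT females had the genotype EZ fl/fl, that is, floxed Ezh2 alleles without Cre. The 4 Ezh2cKO females (KO below) had EZ fl/fl; Prcre/+, with Cre expressed where the progesterone receptor gene Pgr is active. All 8 animals, of a mixed C57BL/6 and 129SvEv strain and 1 of each genotype from each of 4 litters, were ovariectomized at postnatal day 71 ± 4 and their uteri were taken at day 112 ± 11, so both genotypes lacked ovarian hormones. Each table gives 1 average per gene and group, where a group takes all epithelial or all stromal spots of a genotype's animals together, so no value below has a spread between animals.

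PRC2 methylates lysine 27 of histone H3. PRC1 binds that mark through its CBX subunits and adds ubiquitin to histone H2A through RING1 or RNF2. KDM6 demethylases remove the PRC2 mark, while the Trithorax-type methyltransferases and the SWI/SNF remodellers work against Polycomb silencing. EZH1 is the paralog of EZH2 and can take its place in PRC2, with weaker catalysis.

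Sums of unique molecular identifiers (UMIs, each standing for 1 captured transcript) were recovered from the averages for 4 pools: KO epithelium, WT epithelium, KO stroma and WT stroma. Taking the WT stroma pool as 1, depth was 2.01 in KO stroma, 2.54 in WT epithelium and 2.75 in KO epithelium. All 75 members had a value in both epithelial pools, with a median of 97 UMIs in each and a range of 55 to 459 in KO and 48 to 419 in WT. A table lists only genes with an average above 1 in at least 1 of its groups, and far fewer members had a stromal value: 31 in KO stroma, 15 in WT stroma and 14 in all 4 pools. An average of 1 stood for 61.7 UMIs in KO and 56.9 in WT between epithelial pools. Between stromal pools it stood for 170 in KO and 84.7 in WT, and between WT compartments for 177 in epithelium and 69.7 in stroma. The bar thus differed by comparison, and fewer stromal values do not by themselves mean lower stromal levels. Markers of both compartments were looked at too. Between WT compartments, 9 of 12 simple epithelium markers were listed and all 9 were called on the epithelial side (summed level 7.92-fold). None of these 9 had an average above 1 in both pools, so their listing favours that direction. Of 12 endometrial stroma markers, 9 had an average above 1 in both pools, and 9 of the 12 were called on the stromal side. Between KO compartments 11 epithelium markers were listed, 7 of them with an average above 1 in both pools. All 11 were called on the epithelial side, and 5 of the 12 stroma markers on the stromal side. Pgr, the Cre driver gene, had 240 UMIs in KO and 257 in WT epithelium, and 166 in KO and 90 in WT stroma; scaled for depth, KO over WT was 0.862 in epithelium and 0.917 in stroma, and epithelium over stroma 1.12 in WT and 1.06 in KO.

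The first comparison asked whether the remaining chromatin regulators differed in epithelium when Ezh2 was deleted. None of the 75 members was called, that is, none passed an adjusted p of 0.05. The authors' deposited table gives 1 for each of them, as it does for 5682 of all its 5811 genes. Of its 5811 genes 0.12% were called, 7 in all (0.0688% higher and 0.0516% lower in KO), and the smallest called fold was 2.72. Unadjusted p-values were not used here, so no count at an unadjusted p is given. The members lay close together, with ratios of KO over WT from 0.596 for Kdm5a to 1.46 for Rnf2. The plot of genotype ratios by class shows them with their intervals.

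**Figure D1:**
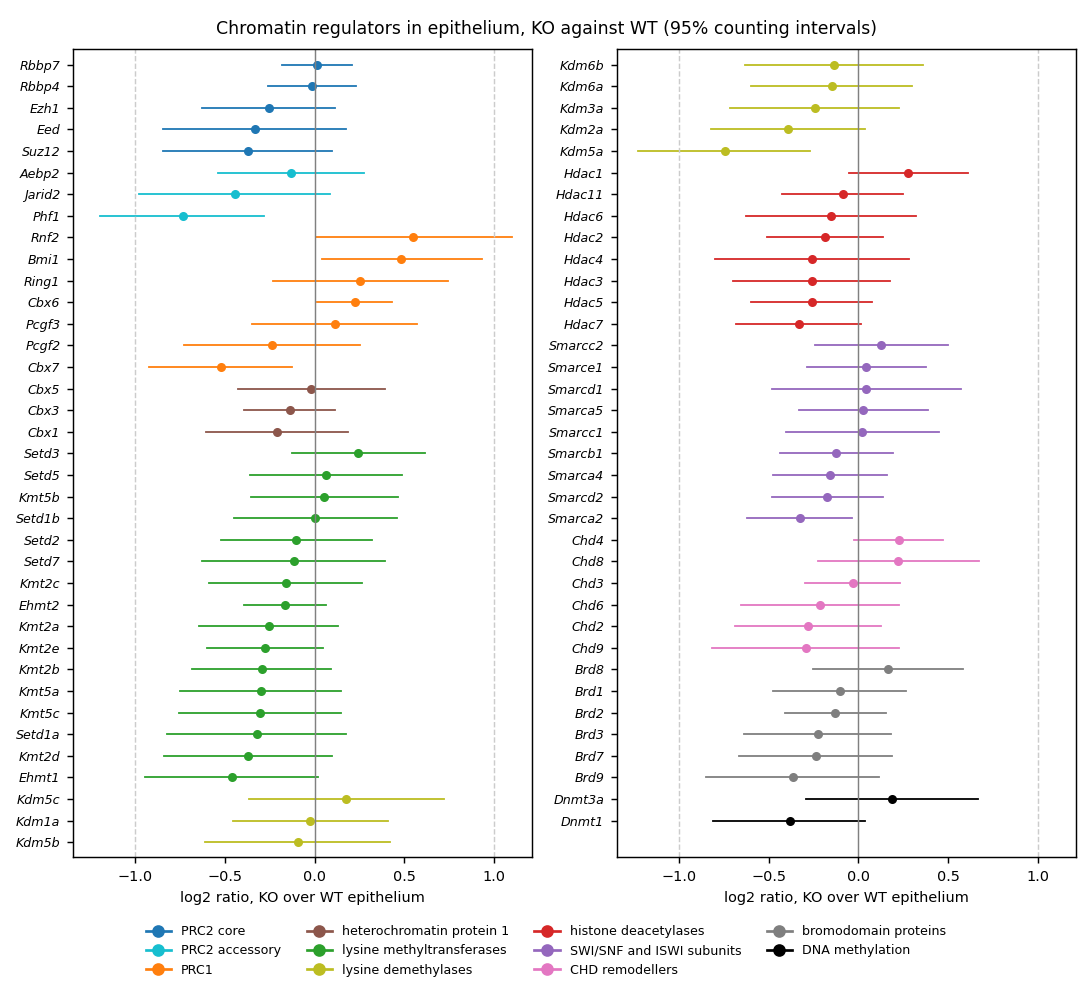
Log2 ratio of KO over WT epithelium (x axis) for 73 of the chromatin regulators, coloured by class and split over 2 panels; points are ratios of scaled UMI sums and bars are exact 95% counting intervals. The dashed lines mark a 2-fold change, and 70 of the 73 intervals drawn lie wholly between them.

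Of the PRC2 core, 5 members were listed. Ezh1 had 118 UMIs in KO epithelium and 130 in WT epithelium, which after scaling is a ratio of 0.838 (95% counting interval 0.647 to 1.08). Suz12, the scaffold subunit that PRC2 needs to be stable, had 72 and 86 UMIs (0.773, 0.557 to 1.07). Eed, which binds the methyl mark and stimulates the enzyme, had 62 and 72 (0.795, 0.557 to 1.13). These 3 genes were within their counting error of no difference.

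The histone-binding subunits Rbbp4 and Rbbp7, which also serve other complexes, had more UMIs and tighter intervals. Rbbp4 had 293 UMIs in KO and 273 in WT (ratio 0.990, 0.837 to 1.17). Rbbp7 had 459 and 419 (1.01, 0.883 to 1.16). Their intervals reach no further than 1.19-fold in either direction.

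The 3 accessory genes of PRC2 that were listed each had a lower value in KO. Phf1, which links PRC2 to methylated histone H3 lysine 36, had 69 UMIs in KO epithelium and 106 in WT epithelium, a ratio of 0.601 (0.437 to 0.821). Jarid2, a DNA-binding cofactor, had 55 and 69 (0.736, 0.507 to 1.06), and Aebp2 had 103 and 104 (0.914, 0.689 to 1.21). Jarid2 is listed only because its WT average is above 1, which favours a lower value in KO. Phf1 was 1 of 2 members past a 1.5-fold difference, the other being Kdm5a, a demethylase of histone H3 lysine 4, with 62 and 96 UMIs (0.596, 0.426 to 0.829). Both lie on the lower side, where 5.4% of all listed genes were past 1.5-fold, and on the higher side there was no member against 3.44% of all genes. Of 75 members 2 past 1.5-fold is a smaller share than the 8.85% of all listed genes. With ratios centred on the median gene, 2 members were past 1.5-fold on each side, with Rnf2 and Bmi1 on the higher side.

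Of 8 listed PRC1 genes, 5 had a higher value in KO epithelium. Rnf2, the main E3 ligase of PRC1, had 76 UMIs in KO and 48 in WT (ratio 1.46, 1.00 to 2.14), and Bmi1, the PCGF subunit of canonical PRC1, had 109 and 72 (1.40, 1.03 to 1.91). Rnf2 is listed only because its KO average is above 1. Cbx6 had 420 and 332 UMIs (1.17, 1.01 to 1.35). Ring1, the paralog of Rnf2, had 84 UMIs in KO and 65 in WT, and Pcgf3 had 89 and 76.

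The other PRC1 genes had lower values in KO. Cbx7, a chromodomain subunit that reads the PRC2 mark, had 95 UMIs in KO and 126 in WT (ratio 0.696, 0.527 to 0.915). Pcgf2, a PCGF subunit, had 69 and 75 UMIs (0.849, 0.603 to 1.19). The PRC1 genes thus had values on both sides, with a median log2 ratio of 0.17. The median over the 5 PRC2 core genes was -0.26 and over the 3 accessory genes -0.44, which is the value of Jarid2. No difference between these classes was tested.

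All 3 listed heterochromatin protein 1 genes, Cbx1, Cbx3 and Cbx5, whose proteins bind methylated histone H3 lysine 9, had ratios between 0.866 and 0.988, with a median log2 ratio of -0.14. Among 16 lysine methyltransferases 12 had a lower value in KO (median -0.21). Ehmt2, which dimethylates histone H3 lysine 9, had 313 UMIs in KO and 324 in WT. Kmt2e had 153 and 171 UMIs, and Kmt5b, a methyltransferase of histone H4 lysine 20, had 108 and 96. The large H3 lysine 4 methyltransferase genes Kmt2a (ratio 0.837), Kmt2b (0.815), Kmt2c (0.894) and Kmt2d (0.774) all had lower values in KO, with intervals that include 1. Of the genes with higher values, Setd3, which methylates a histidine of actin, had 141 UMIs in KO and 110 in WT (1.18, 0.915 to 1.53).

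Of 8 demethylases 7 had a lower value in KO (median -0.14). For the H3 lysine 27 demethylases the genotypes differed by less than counting error: Kdm6a had 84 UMIs in KO and 86 in WT (ratio 0.901, 0.659 to 1.23), and Kdm6b had 70 and 71 (0.910, 0.644 to 1.28). Among 8 histone deacetylases 7 had a lower value, and the exception was Hdac1, with 180 and 137 UMIs (1.21, 0.965 to 1.53). Hdac7, a class IIa deacetylase, had the lowest ratio of them, with 130 UMIs in KO and 151 in WT (0.794, 0.623 to 1.01). The 9 SWI/SNF and ISWI genes split 5 to 4 about a median of 0.02. Smarca2, a SWI/SNF ATPase, had 183 UMIs in KO and 212 in WT (0.797, 0.650 to 0.975). The alternative ATPase gene Smarca4 had 165 and 170 (0.896, 0.718 to 1.12), and Smarca5, the ISWI ATPase, 138 and 125 (1.02, 0.794 to 1.31). The other 6 genes of this class had ratios between 0.887 for Smarcd2 and 1.09 for Smarcc2.

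CHD remodellers had a median log2 ratio of -0.12 over 6 genes, among them Chd4, the NuRD ATPase, with 305 UMIs in KO and 241 in WT (ratio 1.17, 0.983 to 1.39). Bromodomain genes had a median of -0.17 over 7 genes, and Brd2, a reader of acetylated histones, had 209 UMIs in KO and 211 in WT (0.914, 0.751 to 1.11). Of the DNA methylation genes 2 were listed. Dnmt1, the maintenance methyltransferase, had 88 UMIs in KO and 106 in WT (0.766, 0.571 to 1.03), and the de novo enzyme gene Dnmt3a had 85 and 69 (1.14, 0.818 to 1.58).

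Over all 75 members the median log2 ratio in epithelium was -0.16, and 54 had a lower value in KO. The whole table leaned the same way: its median gene stood at -0.10, and 3766 of 5811 genes had a lower value in KO. Read against that median gene, 46 of the 75 members lay below it and 29 above, and their median was -0.05. The 8 histone deacetylases then divide 6 below to 2 above, and the 16 methyltransferases 11 below to 5 above. The 8 demethylases divide 5 below to 3 above, the 7 bromodomain genes 5 to 2 and the 3 heterochromatin protein 1 genes 2 to 1. Of the 5 PRC2 core genes 3 lay below, of the 3 accessory genes all 3, and of the 8 PRC1 genes 3. The 9 SWI/SNF and ISWI genes divide 4 below to 5 above, the 6 CHD genes 3 to 3 and the 2 DNA methylation genes 1 to 1. The quartiles of the members were -0.29 and 0.02, and those of all genes -0.28 and 0.08. The interval lay wholly within a 2-fold change for 72 of the 75 members, against 88.9% of all listed genes, at median counts over both pools of 192 and 206 UMIs. Markers of other cell types also moved between the epithelial pools: the 12 endometrial stroma markers summed 1.35-fold higher in KO, 9 of them with the higher value, the 8 of 10 smooth muscle markers listed had a summed ratio of 0.625, and the 5 of 10 immune markers one of 1.56. Their part in the members' ratios was not tested.

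**Figure D2:**
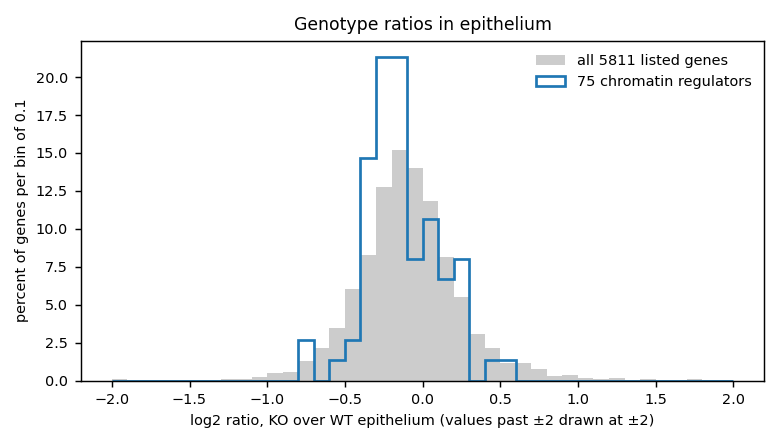
Distribution of the log2 ratio of KO over WT epithelium (x axis) as the percent of genes in bins 0.1 wide (y axis), for all 5811 listed genes (grey) and the 75 chromatin regulators (blue outline). Both centre just below 0, with medians of -0.10 and -0.16, and no member lies below -0.75 or above 0.55.

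In stroma the same question could be asked of few members, since 8 were listed in the table of KO against WT stroma. None was called, against 1.51% of its 1191 genes (0.756% higher and 0.756% lower in KO). By the authors' deposited table the lowest adjusted p among the 8 was that of Kmt2e, 0.271. Past 1.5-fold were 2 members on the higher side (6.38% of all genes) and 1 on the lower side (8.65%), that is 3 of 8 against 15% of the table. With 8 members no share can be read from this. The median was -0.04, beside -0.05 for all genes of the table, and the members stood 4 above and 4 below 0.

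Kmt2e, an MLL-family gene whose protein is thought to lack methyltransferase activity of its own, had the lowest ratio. Its sums were 175 UMIs in KO stroma and 159 in the shallower WT pool, a ratio of 0.547 (95% counting interval 0.439 to 0.682), or 1.83-fold lower in KO. Cbx6 was at the other end with 293 and 91 UMIs (1.60, 1.26 to 2.05), followed by Chd4 with 219 and 72 (1.51, 1.15 to 2.00) and Ehmt2 with 209 and 76 (1.37, 1.05 to 1.80). Chd4 and Ehmt2 were listed only because their KO averages are above 1, which favours a higher value in KO. Rbbp4 (ratio 0.891), Rbbp7 (1.06), Cbx3 (0.882) and Smarca2 (0.869) had intervals that include 1.

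Another 6 members had stromal sums in the tables of epithelium against stroma, which share the same pools and whose scalings close to 1 common scale. Hdac5, another class IIa deacetylase, had sums of 108 in KO and 80 in WT stroma (ratio 0.671, 0.498 to 0.907), and Cbx1 had 104 and 70 (0.738, 0.540 to 1.01). Chd3 (0.873), Hdac2 (0.925), Brd2 (1.18) and Smarcd2 (1.35) had intervals that include 1. Their stromal genotype difference has no adjusted p here, since these 6 genes are outside that table's list.

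Marker genes of other cell types also differed between the stromal pools. The 9 of 12 epithelial markers with a value in both pools summed to 287 UMIs in WT stroma and to 652 at the same depth in KO stroma, 2.27-fold higher, and all 9 had the higher value in KO. The 6 of 10 smooth muscle markers with values summed to 1241 in WT stroma and 544 in KO stroma, 2.28-fold lower, and none was higher in KO. No marker with a value was at 0 in either pool. Their part in the stromal ratios was not tested, and in pooled spots fewer cells of a type and less RNA per cell cannot be told apart.

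The tables of epithelium against stroma ask where in the uterus each regulator is higher, within 1 genotype. In WT uterus 15 members were listed and 2 were called, Kmt2e and Kmt5b, both higher in stroma. Of the 1769 genes listed there 28.8% were called, 13.1% higher and 15.7% lower in epithelium, so 2 of 15 members is a share below the background. Past 1.5-fold stood 4 of the 15, beside 41.2% of all genes: 1 on the epithelial side (19.5% of all genes) and 3 on the stromal side (21.7%). Both called genes are lysine methyltransferase family members, and the third listed gene of that class, Ehmt2, had the opposite direction.

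Kmt2e, on chromosome 5 (23434441 to 23504235, plus strand, GRCm38), had 171 UMIs in WT epithelium and 159 in the WT stroma pool. Scaled to the depth of WT stroma, its level was highest there, at 159 UMIs (95% Poisson interval 135 to 186), then 87.0 in KO stroma (74.6 to 101), 67.3 in WT epithelium (57.6 to 78.1) and 55.5 in KO epithelium (47.1 to 65.1). WT stroma stands apart from the other 3 pools. Below it the interval of KO stroma overlaps that of WT epithelium, and that of WT epithelium overlaps that of KO epithelium. Such overlap does not show that 2 levels are equal. The intervals of KO stroma and KO epithelium do not overlap. The contrast of WT stroma over WT epithelium was 2.36-fold (1.89 to 2.95), and the authors' deposited table gives it an adjusted p of 0.000123.

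Kmt5b, on chromosome 19 (3767421 to 3818303, plus strand), had 96 UMIs in WT epithelium and 75 in WT stroma. It was 1.99-fold higher in stroma (1.45 to 2.71), at an adjusted p of 0.0286 by the authors' deposited table. Both genes have an average above 1 in WT stroma and not in WT epithelium, so their listing favours a higher value in stroma. Kmt5b had no value in KO stroma.

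The other members of the WT table fell on both sides and none of them was called. Ehmt2 had 324 UMIs in WT epithelium and 76 in WT stroma and was 1.68-fold higher in epithelium (1.30 to 2.18), for which the authors' deposited table has an adjusted p of 0.0726. Cbx6 was 1.44-fold higher in epithelium (1.13 to 1.83) and Chd4 1.32-fold (1.01 to 1.74). Cbx1 had 113 and 70 UMIs and a ratio of 0.635 (0.467 to 0.868). Of the PRC2 core, the histone-binding subunit genes alone had a WT stroma value, with ratios of 0.968 for Rbbp4 (0.773 to 1.22) and 1.23 for Rbbp7 (1.01 to 1.51). The median of the 15 members was -0.05 on the log2 scale, beside 0.02 for all genes, and it was 0.30 when the 7 members listed through 1 compartment alone were left out.

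**Figure D3:**
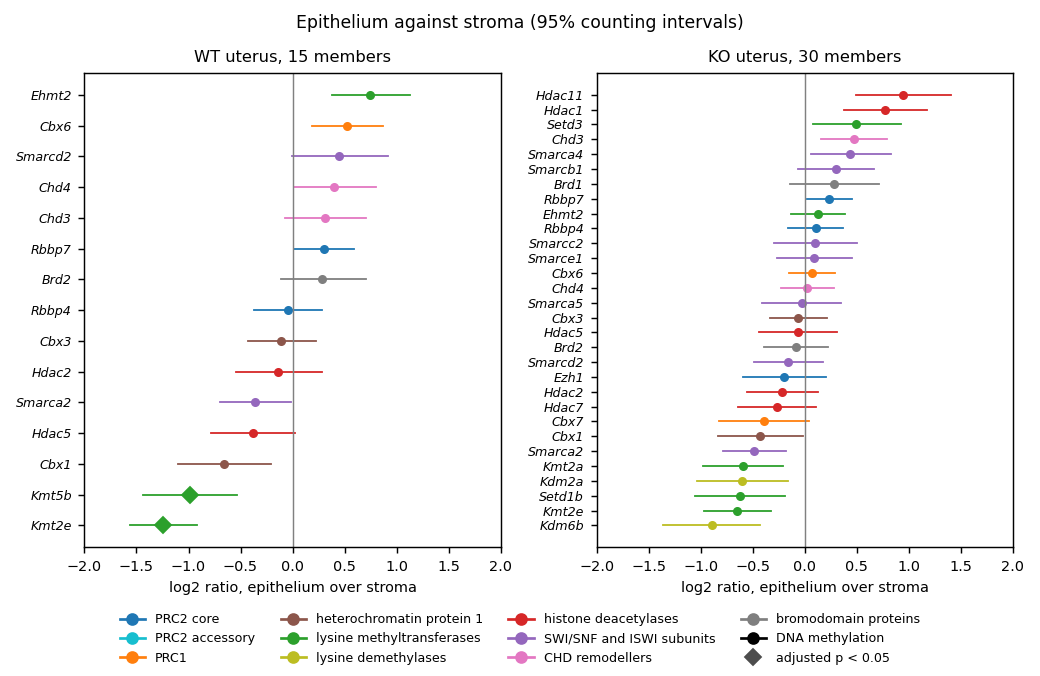
Log2 ratio of epithelium over stroma (x axis) in WT uterus (left, 15 members) and KO uterus (right, 30 of the listed members), coloured by class, with exact 95% counting intervals; diamonds mark genes with an adjusted p under 0.05 in the authors' deposited table. Kmt2e and Kmt5b are the 2 diamonds, both on the stromal side in WT.

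In KO uterus 31 members were listed and none was called, where 9.88% of 2744 genes were (5.43% higher and 4.45% lower in epithelium). By the authors' deposited table the lowest adjusted p was 0.0609, that of Hdac11, the class IV deacetylase, with 150 UMIs in KO epithelium and 57 in KO stroma (1.92-fold higher in epithelium, 1.41 to 2.66). Hdac1 had 180 and 77 UMIs (1.71-fold, 1.30 to 2.26). Both were listed through KO epithelium alone. Past 1.5-fold stood 7 of the 31 members, against 20.9% of all genes: 2 on the epithelial side (9.69% of all genes) and 5 on the stromal side (11.2%).

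The 5 members on the stromal side were Kdm6b, Kmt2e, Setd1b, Kdm2a and Kmt2a. Kdm6b, the inducible H3 lysine 27 demethylase, had 70 UMIs in KO epithelium and 95 in KO stroma, 1.86-fold higher in stroma (1.35 to 2.57). Kmt2e had 153 and 175 (1.57-fold, 1.25 to 1.96), and the H3 lysine 4 methyltransferase genes Setd1b and Kmt2a were 1.54-fold (1.14 to 2.08) and 1.51-fold (1.15 to 1.98) higher in stroma. Kdm2a was 1.51-fold higher in stroma (1.12 to 2.05). Of these 5, Kmt2e alone has an average above 1 in both pools. Ezh1 had 118 UMIs in KO epithelium and 99 in KO stroma (ratio 0.870, 0.661 to 1.15), so its level in KO did not separate the compartments at this depth. The KO stroma pool held more epithelial marker RNA than the WT stroma pool, as given above, and its part in the KO contrasts was not tested.

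For the 14 members with values in all 4 pools, both contrasts can be set side by side, although they share no pool between them and no test of their difference is possible. The median absolute log2 contrast of epithelium against stroma was 0.37 in WT and 0.14 in KO. The whole tables differed the same way, though over different genes listed at different bars. The quartiles were -0.48 and 0.45 for the 1769 genes listed in WT and -0.30 and 0.25 for the 2744 listed in KO. Summed epithelial markers stood 7.92-fold higher in epithelium in WT over the 9 listed there, and 3.05-fold in KO over 11. At the depth of WT stroma, the same 9 markers summed to 2273 in WT epithelium and 287 in WT stroma. In KO they summed to 1949 and 652. Of the 14, 5 were higher in epithelium and 6 higher in stroma in both genotypes. The remaining 3 differed in sign: Brd2 and Smarcd2 were higher in epithelium in WT only, and Rbbp4 in KO only, each with intervals that include 1 in both genotypes. The absolute contrast was smaller in KO for 10 of the 14 genes and larger for 4. Kmt2e, Cbx1, Hdac2, Hdac5, Brd2 and Smarcd2 were listed through 1 WT compartment alone, which favours a larger WT contrast. Cbx1 was also listed through KO stroma alone. WT stroma is the shallowest pool, with a median of 76 UMIs over members with a value, which adds counting error to the WT contrasts. The share over all genes was not computed, so these counts show nothing particular to the members. Among the 10, Kmt2e had log2 contrasts of -1.24 in WT and -0.65 in KO, Ehmt2 0.75 and 0.13, Cbx6 0.52 and 0.07, and Chd4 0.40 and 0.02. The 4 were Chd3 with 0.31 and 0.47, Smarca2 with -0.36 and -0.48, Hdac2 with -0.14 and -0.22, and Rbbp4 with -0.05 and 0.10. For Kmt2e, Ehmt2, Cbx6 and Chd4 the KO stroma level lay between the WT stroma level and the WT epithelium level, or past the latter for Cbx6 and Chd4.

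**Figure D4:**
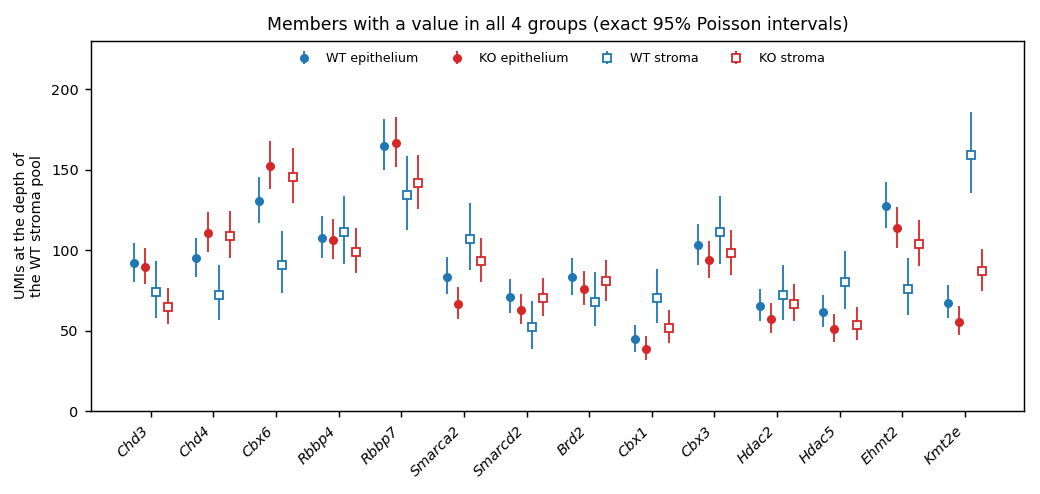
UMIs scaled to the depth of the WT stroma pool (y axis, from 0) for the 14 members with a value in all 4 pools; filled circles are epithelium, open squares stroma, blue WT and red KO, and bars are exact 95% Poisson intervals that cover counting error only. Kmt2e in WT stroma, at 159, stands above its 3 other pools. Intervals overlap in all 4 pools for 6 of the 14 genes and do not for 8. The share over all genes was not computed, so these counts show nothing particular to the members.

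Side by side, the genotype ratios of these 14 genes in epithelium and stroma had medians of -0.15 and -0.14 on the log2 scale and median absolute values of 0.18 and 0.34. The stromal pools were shallower, with depths of 1 in WT and 2.01 in KO against 2.54 and 2.75 in epithelium. Counting error is thus larger in stroma, and the 2 absolute values are not on an equal footing. Of the 14, 8 were lower in KO in both compartments and 3, Cbx6, Chd4 and Rbbp7, higher in both. Brd2, Ehmt2 and Smarcd2 were lower in KO epithelium and higher in KO stroma. Whether any genotype ratio differed between compartments was not tested, because it needs a spread between animals.

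Further genes of this machinery, outside the name pattern, were taken from a list of 184 partners, of which 112 were in the epithelial genotype table. None of the 112 was called between genotypes in epithelium and none of 23 in stroma. Their median in epithelium was -0.12, with 79 of 112 lower in KO, beside 3766 of 5811 genes of the whole table. Read against the median gene, 60 of the 112 lay below it and 52 above, and their median was -0.01. Of 10 listed PRC1 and PRC2 partner genes 8 were lower, and 6 lay below the median gene. Of 6 genes of the Polycomb deubiquitinase complex 4 were lower, and 4 lay below the median gene. Bap1, its enzyme, had 74 UMIs in KO and 63 in WT.

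Between compartments of the WT uterus, 5 of 30 partner genes were called. Higher in stroma were Atrx, a remodeller of heterochromatin, at 2.26-fold (1.85 to 2.77), Ash1l, an H3 lysine 36 methyltransferase gene, at 2.12-fold (1.63 to 2.75), and Arid1b, a SWI/SNF subunit gene, at 2.06-fold (1.58 to 2.68). Higher in epithelium were Mecom, at 4.35-fold (2.68 to 7.49), and the histone gene Hist1h2bc, at 1.99-fold (1.40 to 2.88). Ash1l, Arid1b and Mecom were each listed only through the compartment where they were higher, so their listing favours these directions. In KO uterus 1 of 51 was called, Mecom, 2.62-fold higher in epithelium (1.93 to 3.59) and again listed through epithelium alone. The share of 5 in 30 is below the 28.8% of the whole WT table, as is 1 in 51 below 9.88%.

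All 75 members are protein-coding genes of GRCm38 in the GENCODE annotation, spread over 19 chromosomes, with 4 on X. Polycomb complexes are known to gather at promoters rich in CpG, so the promoters of the regulators were looked at for that feature, which the choice of members did not use. RefSeq promoter windows on GRCm38.p6 were found for 61 members (85 windows). In the 250 bases before the start, CG (the same on both strands) occurred a median of 21 times in the members, 17 times in the 6078 windows of listed genes and 6 times in all 32851 windows. A GC content above 50% with an observed over expected CpG ratio above 0.6 was met by 66 of the 85 member windows (77.6%), by 65.7% of windows of listed genes and by 30.8% of all windows. These are counts of letters and say nothing of binding or methylation in these uteri. The 250 bases before the start are shown for Ezh1, the listed paralog of the deleted gene, at chr11:101226464-101226713 on the minus strand, and for Kmt5b, a called member, at chr19:3767171-3767420 on the plus strand, written 5′ to 3′ with each CG in capitals.
Ezh1: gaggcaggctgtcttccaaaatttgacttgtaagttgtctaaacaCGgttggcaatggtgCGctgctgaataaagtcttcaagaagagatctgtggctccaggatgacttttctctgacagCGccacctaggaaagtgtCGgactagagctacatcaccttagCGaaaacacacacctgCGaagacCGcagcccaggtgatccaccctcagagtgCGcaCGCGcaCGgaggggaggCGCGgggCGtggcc
Kmt5b: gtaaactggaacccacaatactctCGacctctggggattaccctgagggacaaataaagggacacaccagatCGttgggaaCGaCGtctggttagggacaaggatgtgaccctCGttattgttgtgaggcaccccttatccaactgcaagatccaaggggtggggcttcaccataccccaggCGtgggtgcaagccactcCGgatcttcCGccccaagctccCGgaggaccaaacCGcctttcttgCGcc
The Ezh1 window holds 14 CG in 55.2% GC (observed over expected 0.738), and the Kmt5b window holds 11 in 56.4% GC (0.556).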

How the data were processed

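Spatial libraries of 8 uteri, 4 per genotype, were analysed through 4 deposited tables. Per the file headers, a table holds for each gene the group averages, their log2 fold changes and an adjusted p-value (FDR). The submitters' processing notes name GRCm38. The aligner, the test and the way spots were named were not given in the sources used here. If the authors used genes to name spots, those genes are no finding between compartments.

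UMI sums were solved from the averages and log2 columns by least squares: with 1 added to each sum, whole numbers (tolerance 0.01) came out for 100% of genes in every table, and 0 sums differed between tables. A member was called where the deposited adjusted p was under 0.05. Ratios use no pseudocount, and their 95% intervals (exact Clopper-Pearson, or Poisson for levels) cover counting error only. On simulated tables of KO against WT epithelium (5811 genes), 100% of sums were recovered and intervals covered 95.2% of unchanged genes. The simulation used the same formula and drew counts with counting error only. It therefore checks the calculation and cannot test the intervals against spread between animals or spots.

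The members, classes, partner list and alternatives were chosen with earlier results of these data known. By rule, the text names called members, Polycomb and DNA methylation members and, in each remaining class and comparison, up to 3 members per direction with the largest log2 ratio, of those whose summed count reached the members' median. Members outside it (Kdm2a, Kdm5a, Kdm6a, Kdm6b, Setd1b, Hdac11, and others in comparisons where the rule does not take them) and partner genes were named after their values were seen. edgeR was planned only for values per animal and was not run. Python 3.11.15, NumPy, SciPy 1.17.1 and pandas were used. A few members enter the counts and medians but are not reported here by name.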

Additional observations from a re-analysis of the deposited data

How the results depend on the processing

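No paired analysis was possible because each deposited average joins all animals of a group, and for the same reason no replicate could be left out. At an adjusted p of 0.01, with a minimum log2 ratio of 1, or without the lowest 25% of genes by level, 1 member was called between WT compartments in place of 2; Kmt5b lost its call at 0.01 (log2 ratio -0.99, adjusted p 0.0286 in the authors' deposited table). The counts of 0 in the other 3 comparisons were 0 under these 3 settings too. At a fold of 2 in place of 1.5, members past it fell from 2 to 0 between genotypes in epithelium, from 3 to 0 in stroma, from 4 to 1 between WT compartments and from 7 to 0 between KO compartments. Centred on the median gene, 4 members were past 1.5-fold in epithelium, 2 on each side, and the members' median log2 ratio moved to -0.055 there and from -0.04 to 0.0075 in stroma, a change of sign. Over members with an average above 1 in both groups, the median was -0.17 between genotypes in stroma and turned from -0.05 to 0.30 between WT compartments, since members listed through 1 group are left out. With scaling by listed totals or the authors' deposited log2 values, all 4 medians had the same sign as reported, and the largest shift was in stroma between genotypes, to -0.07. Centring moved 0 of 75 named values, each of 1 gene in 1 comparison, outside its counting interval. The shifts were too small to do so. The largest came from the median gene at -0.10, and the tightest interval, for Rbbp7 in epithelium, ran from -0.18 to 0.21. In epithelium Cbx5, Chd3 and Rbbp4 changed sign on centring, to 0.087, 0.073 and 0.091. Depth limits what can be seen: at a median of 97 UMIs per epithelial pool, differences of the sizes listed here are near counting error, and members below the listing average were not analysed here.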

Other observations

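Gene length was looked at after the data were seen, because the called genes higher in WT stroma are long. Over the 15 members listed between WT compartments, Spearman's rho between gene span and the log2 ratio of epithelium over stroma was -0.66 (Pearson's r with log2 span -0.63), and without Kmt2e and Kmt5b it was -0.52 over 13. Kmt2e spans 69.8 kb and Kmt5b 50.9 kb, while Cbx6 and Smarcd2, both with higher values in epithelium, span 10.8 kb and 9.79 kb; Smarca2, the longest at 173 kb, had a log2 ratio of -0.36. Over all 1768 genes of the table with a span, rho was -0.20. In KO uterus rho was -0.21 over 31 members and -0.18 over 2743 genes. Among the 14 members with values in all 4 pools it was -0.60 in WT and -0.30 in KO. All points of a comparison come from the same 2 pools, so these are descriptions of those pools, and no cause was tested.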
